A study of Rattus norvegicus with 6 samples.

Results

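The metalloproteinases of the MMP, ADAM and ADAMTS families and their inhibitors were followed in mesenchymal stem cells from rat nasal mucosa. The members were all genes of the deposited count table with a symbol of the Mmp, Adam, Adamts, Adamtsl or Timp1 to Timp4 form, plus Reck, which gave 62 of 20653 genes. These were 19 Mmp, 17 Adam, 16 Adamts, 5 Adamtsl and 4 Timp genes and Reck. The series holds 3 RNA-seq libraries of NPS-EMSC, in which neuropeptide S is overexpressed, and 3 of EMSC. All cells were described as primary, and their genotype as SD, a strain label that is not spelled out. No age, promoter, vector or control vector was named in the labels, so neuropeptide S itself and the handling needed to introduce it cannot be told apart.

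Metalloproteinases of these families cut proteins at the cell surface and in the matrix with a zinc ion held in their catalytic site. MMPs are made as inactive zymogens and digest collagens, gelatin, elastin and other matrix proteins, ADAMs mostly release the outer part of membrane proteins, and ADAMTS enzymes are secreted and act on proteoglycans, procollagens and other matrix components. ADAMTS-like proteins carry similar ancillary domains without a protease domain. TIMPs and RECK inhibit many of these enzymes, and in connective tissue the mix of enzymes and inhibitors bears on how mesenchymal cells remodel matrix and move through it.

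The libraries held 39082245 to 39511976 counted reads in NPS-EMSC and 39314098 to 40261205 in EMSC, and 1.18% to 1.35% of all reads lay in the 62 members. Nps, the gene of the overexpressed peptide, had 93566, 77014 and 85916 reads in NPS-EMSC and 0, 0 and 10 reads in EMSC. Libraries of 1 group correlated with one another at r of at least 0.996 on log2(CPM + 1) values and with the other group at r of at most 0.964, across the tested genes. Mesenchymal markers were present in both groups at unlike levels. Col1a1, a type I collagen chain named after its values were seen, had 5833, 6299 and 5829 CPM in NPS-EMSC and 6839, 8053 and 6863 CPM in EMSC. Nt5e had 64.8, 59.0 and 61.3 CPM in NPS-EMSC and 12.3, 13.8 and 15.3 CPM in EMSC. Of 12 mesenchymal markers 7 rose and 5 fell, where 29.7% of all tested genes rose and 29.5% fell. The defining epithelial gene Epcam had at most 4 reads in any library, and of the epithelial list only Krt8 and Krt18 were tested, which both rose. None of the 4 tested endothelial markers passed the edgeR test, by DESeq2 none did either, and 1 had an unadjusted p under 0.05. In edgeR 1 of them was called lower with no filter, with a filter of 1 CPM and without EMSC replicate 3. The smooth muscle and myofibroblast list rose in 10 of 11 tested members, and its summed level was 10705 to 10762 CPM in NPS-EMSC against 3499 to 3659 CPM in EMSC. The part of such a shift in the members' values was not tested. The labels do not say whether replicates came from separate cultures or animals, so p-values measure only the spread between these libraries, which may be technical.

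Members differed between the groups in both directions. Of the 49 members with enough reads to be tested, 18 were higher and 21 lower in NPS-EMSC at an adjusted p under 0.05 (edgeR quasi-likelihood test, Benjamini-Hochberg over 14505 genes). Together these were 79.6% of the tested members, where 59.3% of all tested genes passed, 29.7% higher and 29.5% lower. The median log2 fold change of the members was -0.0083, against -0.0048 over all genes, and the median of its absolute size was 0.47 against 0.34. A change of at least 2-fold was called higher in 5 members and lower in 11, against 6.48% higher and 8.3% lower among all tested genes, or 14.8% in either direction. In 39 of the 49 tested members the 3 values of one group did not overlap those of the other, where 64.7% of all tested genes did so. Of the untested members Mmp7, Mmp24 and Adam30 were apart too. Adam1a was apart without a call, and Timp3 had a call with overlapping groups. The 13 untested members were Mmp1b, Mmp7, Mmp10, Mmp24, Mmp25, Adam2, Adam4, Adam11, Adam28, Adam30, Adam32, Adamts19 and Adamts20. None of these had more than 17 reads in any library. Adam30 had 0 reads over the NPS-EMSC group and 9 over the EMSC group, at least 2.86-fold lower at a floor of 3 reads over the group.

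**Figure D1:**
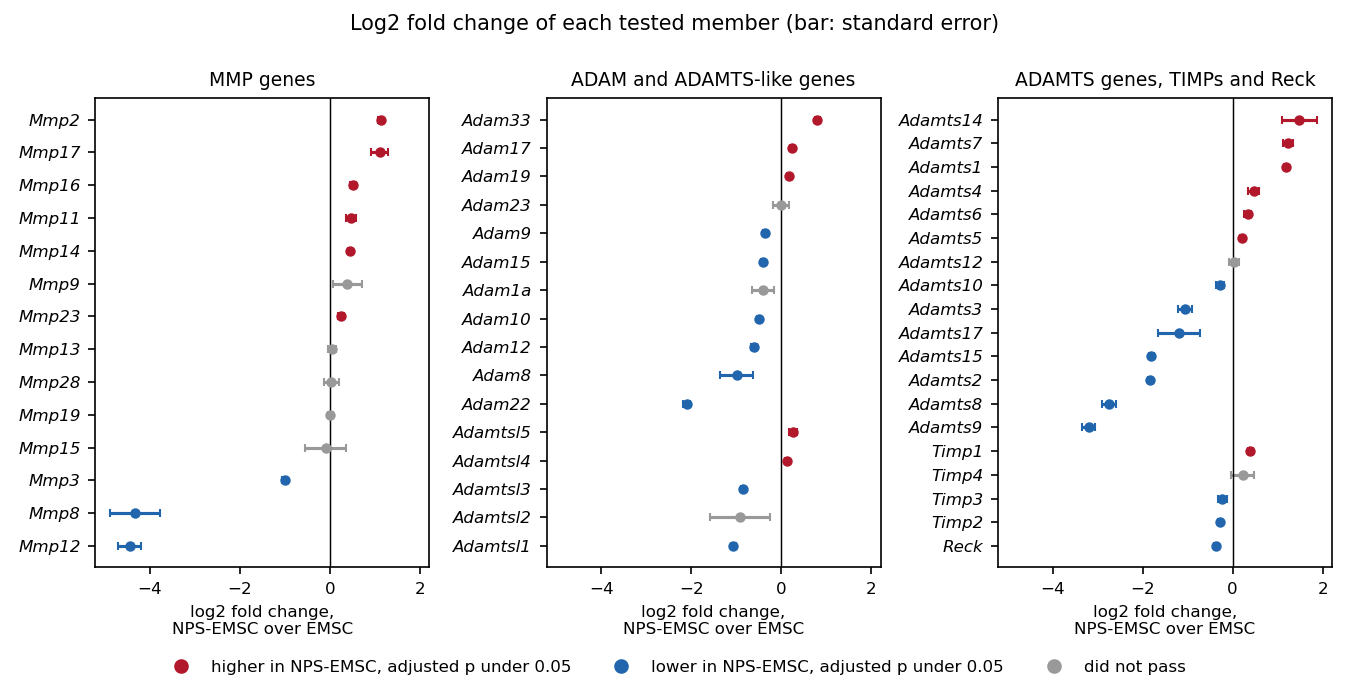
Log2 fold change of the 49 tested members, NPS-EMSC over EMSC, with the standard error as a bar (n = 3 libraries a group). Red points were higher and blue points lower in NPS-EMSC at an adjusted p under 0.05, and grey points did not pass. Mmp12 and Mmp8 fell most among the MMPs, while Mmp2 rose by 1.13, and the ADAMTS genes ranged from -3.20 to 1.48.

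The gelatinase gene Mmp2 had the highest FPKM of the proteases and rose in NPS-EMSC. Mmp2, which digests gelatin and basement membrane collagen, stood at 3826, 3357 and 3587 CPM in NPS-EMSC and 1686, 1540.0 and 1695 CPM in EMSC. The lowest NPS-EMSC library lay above the highest EMSC library, and the log2 fold change was 1.13 (SE 0.05, adjusted p = 2.18e-15). Mmp9, the other gelatinase, was low, with 2.14, 1.42 and 1.39 CPM in NPS-EMSC and 1.51, 1.24 and 1.002 CPM in EMSC, and its groups overlapped (adjusted p = 0.311).

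Of the 6 genes of membrane-type MMPs, which act at the cell surface, 4 were tested, and 3 of them rose. The share called was 75%, against 59.3% of all tested genes. Mmp14 encodes MT1-MMP, which cuts collagen and activates the MMP2 zymogen together with TIMP2. It was present at 483, 454 and 472 CPM in NPS-EMSC and 348, 336 and 353 CPM in EMSC, without overlap (log2 fold change 0.44, SE 0.04, adjusted p = 4.10e-09). Mmp16, another transmembrane type, rose to 47.0 ± 0.534 CPM in NPS-EMSC, against 32.9 ± 0.238 CPM in EMSC (SD, n = 3). The GPI-anchored Mmp17 had 6.66, 5.17 and 7.40 CPM in NPS-EMSC and 2.99, 3.09 and 2.78 CPM in EMSC and rose 2.15-fold (adjusted p = 1.15e-05). Mmp15 stayed under 1 CPM in all 6 libraries and did not pass (adjusted p = 0.876).

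The secreted MMPs that are encoded side by side did not move as a block. By RefSeq's annotation of the rat build GRCr8, Mmp13, Mmp12, Mmp1b, Mmp3, Mmp10, Mmp8 and Mmp7 lie in that order on chromosome 8. Between neighbours lie no, 1 or 2 protein-coding genes, and other kinds of gene were not counted. MMP promoters of this group are known for binding sites of AP-1, the dimer of Fos and Jun proteins, close to a TATA box. The windows of 250 bases before to 50 bases after the start are shown for the 4 tested genes of the row, so that the elements can be set beside their unlike changes. Capitals mark the letters searched for AP-1, which are TGAGTCA, and the letters searched for the TATA box, which are TATAAA, each on either strand. The sequences are those of RefSeq in GRCr8, all on the plus strand, for Mmp13 at chr8:12782579-12782878, Mmp12 at chr8:12866402-12866701, Mmp3 at chr8:12925031-12925330 and Mmp8 at chr8:13008640-13008939.
Mmp13: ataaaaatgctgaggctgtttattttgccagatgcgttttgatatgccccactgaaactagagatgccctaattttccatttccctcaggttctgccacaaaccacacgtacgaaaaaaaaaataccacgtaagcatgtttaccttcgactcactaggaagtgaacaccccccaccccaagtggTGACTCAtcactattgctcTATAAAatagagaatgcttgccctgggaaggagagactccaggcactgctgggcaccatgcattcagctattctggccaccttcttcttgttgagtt
Mmp12: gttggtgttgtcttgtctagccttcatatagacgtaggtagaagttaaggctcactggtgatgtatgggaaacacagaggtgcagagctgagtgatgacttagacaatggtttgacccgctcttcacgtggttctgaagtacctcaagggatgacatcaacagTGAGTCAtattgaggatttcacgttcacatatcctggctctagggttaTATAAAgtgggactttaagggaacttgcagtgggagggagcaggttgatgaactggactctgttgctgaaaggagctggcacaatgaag
Mmp3: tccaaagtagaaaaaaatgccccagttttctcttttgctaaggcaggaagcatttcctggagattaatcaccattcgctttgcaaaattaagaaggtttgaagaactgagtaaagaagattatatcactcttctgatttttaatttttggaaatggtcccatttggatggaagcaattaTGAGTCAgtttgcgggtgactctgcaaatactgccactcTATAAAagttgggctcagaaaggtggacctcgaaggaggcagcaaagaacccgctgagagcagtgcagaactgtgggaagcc
Mmp8: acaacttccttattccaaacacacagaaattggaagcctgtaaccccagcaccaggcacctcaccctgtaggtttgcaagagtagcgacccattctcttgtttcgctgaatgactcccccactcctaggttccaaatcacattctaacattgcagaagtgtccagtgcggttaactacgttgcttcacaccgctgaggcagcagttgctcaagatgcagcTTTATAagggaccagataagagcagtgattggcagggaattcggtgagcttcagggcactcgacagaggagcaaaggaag
The AP-1 letters stood in the windows of Mmp13, Mmp12, Mmp3, Mmp10 and Mmp7 and in those of neither Mmp8 nor Mmp1b, and the TATA letters in 6 of the 7 windows. Among all 33469 promoter windows of the table, 4.63% held TGAGTCA and 14.2% held TATAAA on either strand. The AP-1 letters began 66 bases before the start in Mmp13, 87 in Mmp12 and 71 in Mmp3, and the TATA letters 47, 39 and 32 bases before it, with the Mmp8 TATA letters at 30 bases on the other strand. The 2 motifs did not overlap in the windows shown. Of 62 members 45 had a window in the table, and Adam19 was the 1 member outside this row whose window held the AP-1 letters. The TATA letters stood in the windows of 11 members, of which Adamts1, Adamts7, Adamts10, Adamtsl1 and Adamtsl2 lay outside this row. These are matches of letters and do not show binding.

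Mmp12, the macrophage metalloelastase, fell most of all members by the fitted value. It had 0.183, 0.646 and 0.437 CPM in NPS-EMSC and 9.59, 11.7 and 9.47 CPM in EMSC, with every NPS-EMSC library under 1 CPM and every EMSC library above 9 CPM (log2 fold change -4.45, SE 0.25, adjusted p = 1.61e-13). Mmp3, stromelysin-1, which degrades many matrix proteins and activates other MMPs, stood at 40.9, 45.2 and 41.3 CPM in NPS-EMSC and 89.5, 78.1 and 87.5 CPM in EMSC. Its groups lay far apart, with a log2 fold change of -1.001 (SE 0.06, adjusted p = 2.89e-13). Mmp13, the main interstitial collagenase of rodents, had 58.9, 54.8 and 56.4 CPM in NPS-EMSC and 55.1, 46.8 and 62.9 CPM in EMSC. The Mmp13 values of NPS-EMSC lay inside the range of EMSC (log2 fold change 0.05, SE 0.08, adjusted p = 0.66). Mmp8, the neutrophil collagenase, had 0, 0 and 1 reads in NPS-EMSC and 42, 40 and 55 reads in EMSC, a ratio of 131 in favour of EMSC that rests on 1 read in NPS-EMSC (95% exact counting interval 23.1 to 5199). The fitted log2 fold change, which depends on the prior count, was -4.32 (adjusted p = 2.66e-07). Mmp7, matrilysin, had 1 read over the NPS-EMSC group and 14 over the EMSC group and was not tested.

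**Figure D2:**
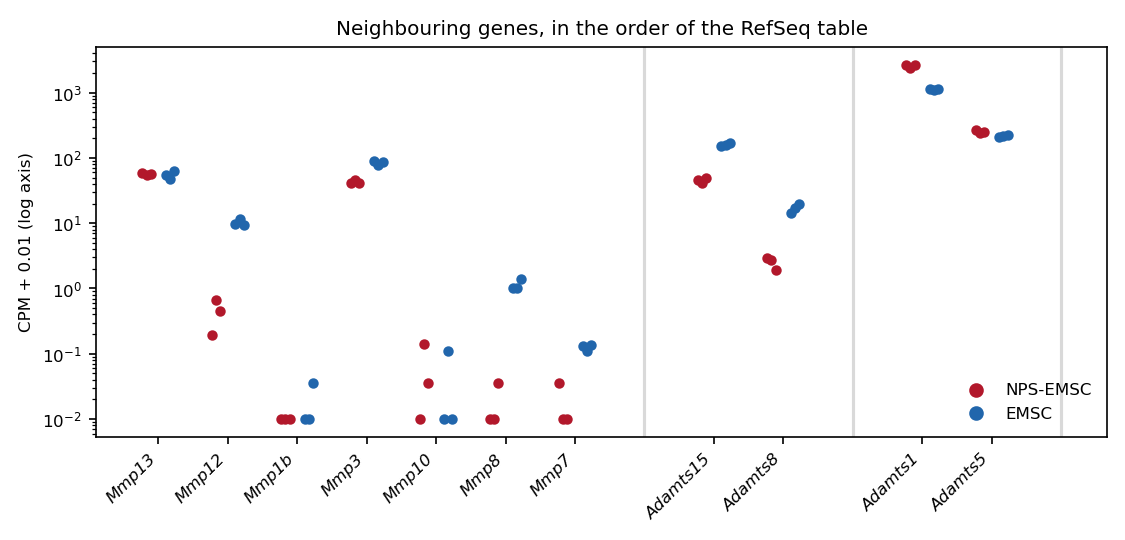
CPM + 0.01 on a log axis in each library for 3 groups of neighbouring member genes, NPS-EMSC in red and EMSC in blue, 1 point per library (n = 3 a group). In the Mmp row, Mmp13 overlapped between the groups while Mmp12, Mmp3 and Mmp8 were lower in NPS-EMSC. Adamts15 and Adamts8 were both lower and Adamts1 and Adamts5 both higher.

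Most leukocyte and macrophage markers were lower in NPS-EMSC as well. Of the 14 tested leukocyte and macrophage markers, 12 fell and 2, Cd14 and Cd74, rose, with a median log2 fold change of -2.42. Over all tested genes 29.7% rose and 29.5% fell, and the median was -0.0048. Cd74 was named after its values were seen and its groups overlapped (adjusted p = 0.0388). Without NPS-EMSC replicate 1 or 2 or EMSC replicate 1 or 3, 1 marker rather than 2 was called higher. The same held on log2(FPKM + 0.1) values and on unfiltered FPKM. Mrc1, a macrophage receptor, had the smallest p and fell to 1.16 ± 0.225 CPM in NPS-EMSC, against 8.18 ± 0.646 CPM in EMSC (SD, n = 3). The 17 markers of the list together held 44.1 to 48.2 CPM in NPS-EMSC and 93.5 to 103 CPM in EMSC. Most of the NPS-EMSC sum was Cd14, which had 30.7, 31.8 and 31.7 CPM in NPS-EMSC and 17.8, 13.1 and 14.4 CPM in EMSC. Ptprc, the pan-leukocyte antigen, named after its values were seen, had 0, 1 and 0 reads in NPS-EMSC and 33, 20 and 41 in EMSC, and the macrophage lysozyme gene Lyz2 had 3.84 ± 0.940 CPM in NPS-EMSC and 52.5 ± 7.71 CPM in EMSC. Their part in the values of Mmp12, Mmp8 and Adam8 was not tested, and in bulk RNA fewer cells of a type cannot be told apart from less RNA per cell. Adam8, which is known from leukocytes, had 0.496, 0.982 and 0.796 CPM in NPS-EMSC and 1.07, 1.95 and 1.65 CPM in EMSC (log2 fold change -0.99, SE 0.37, adjusted p = 0.0246). Its call was lost without NPS-EMSC replicate 1 (adjusted p = 0.108), EMSC replicate 2 (0.123) or EMSC replicate 3 (0.0649), and on unfiltered FPKM (0.0592).

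The other secreted MMPs had smaller differences. Mmp19 was the third most abundant MMP by FPKM, with 135, 135 and 142 CPM in NPS-EMSC and 138, 134 and 135 CPM in EMSC, and did not pass (log2 fold change 0.02, SE 0.05, adjusted p = 0.781). Of the 3 MMPs that are activated by furin-type proteases inside the cell, Mmp11 and Mmp23 rose 1.39-fold and 1.19-fold, while Mmp28 had 4.65 ± 0.580 CPM in NPS-EMSC and 4.53 ± 0.337 CPM in EMSC (SD, n = 3; adjusted p = 0.872). The share called of these 3 was 66.7%, near the 59.3% of all tested genes. The call of Mmp23 was lost on unfiltered FPKM (adjusted p = 0.0613). Mmp11 overlaps Chchd10 in the RefSeq table, a gene with 461, 465 and 360 reads in NPS-EMSC and 14, 18 and 19 in EMSC. The part of those reads in the Mmp11 value was not tested.

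FPKM, which divides by gene length, allows levels to be compared between genes. Mmp2 held 78.4 ± 0.783% of the summed Mmp FPKM in NPS-EMSC and 64.6 ± 0.412% in EMSC (SD, n = 3), and Mmp14 held 12.7 ± 0.313% in NPS-EMSC and 16.9 ± 0.396% in EMSC. The summed FPKM of the 19 Mmp genes was 1482 ± 73.3 in NPS-EMSC and 848 ± 47.5 in EMSC, a difference of 0.81 on the log2 scale. Without Mmp2 the sum was 320.3 ± 4.71 in NPS-EMSC and 300.5 ± 13.5 in EMSC, a difference of 0.09. No test was made on sums over members.

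The ADAMTS genes changed in both directions within most functional classes. Of 14 tested ADAMTS genes, 6 rose and 7 fell (92.9%, against 59.3% of all tested genes). Adamts1, which cuts the proteoglycans versican and aggrecan, had the highest FPKM of the family and stood at 2643, 2409.9 and 2676 CPM in NPS-EMSC and 1141, 1099 and 1149 CPM in EMSC. All NPS-EMSC values exceeded all EMSC values by more than 2-fold, and the log2 fold change was 1.19 (SE 0.05, adjusted p = 1.07e-16). Adamts5, the neighbour of Adamts1 and a major aggrecanase, had 267, 239 and 249 CPM in NPS-EMSC and 211, 219 and 225 CPM in EMSC (log2 fold change 0.20, SE 0.05, adjusted p = 7.08e-04), a call that was lost on log2(FPKM + 0.1) values (0.0547). Adamts4, the other classical aggrecanase, rose 1.38-fold to 13.5 ± 0.921 CPM in NPS-EMSC, against 9.78 ± 1.15 CPM in EMSC (SD, n = 3).

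The other 3 tested proteoglycanases fell. Adamts9, a versican-cutting enzyme, had 5.20, 4.50 and 3.75 CPM in NPS-EMSC and 37.2, 50.3 and 37.1 CPM in EMSC, the largest fall in the family (log2 fold change -3.20, SE 0.14, adjusted p = 6.30e-12). Adamts8 had 2.93, 2.69 and 1.90 CPM in NPS-EMSC and 14.3, 17.3 and 19.5 CPM in EMSC (log2 fold change -2.74, SE 0.16). Its neighbour among protein-coding genes, Adamts15, had 46.4, 41.1 and 49.4 CPM in NPS-EMSC and 151, 157 and 171 CPM in EMSC (log2 fold change -1.80, SE 0.06). In all 3 genes the groups lay apart, and every EMSC value was more than 2-fold above every NPS-EMSC value. The summed FPKM of the 7 proteoglycanases was 654 ± 33.1 in NPS-EMSC and 349 ± 9.35 in EMSC. Without Adamts1 the sum was 73.9 ± 3.62 in NPS-EMSC and 86.1 ± 2.98 in EMSC, the opposite direction. Over all 16 ADAMTS genes the summed FPKM was 729 ± 36.1 in NPS-EMSC and 509.8 ± 12.2 in EMSC (0.52 on the log2 scale), and without Adamts1 it was 149 ± 6.38 in NPS-EMSC and 247 ± 8.59 in EMSC (-0.73).

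The procollagen N-proteinases, which remove the amino-terminal propeptides of fibrillar procollagens, were lower in sum. Adamts2, the main enzyme for types I and III, had 249.7, 238 and 229.6 CPM in NPS-EMSC and 821, 869.8 and 865 CPM in EMSC, and fell with a log2 fold change of -1.83 (SE 0.05, adjusted p = 6.69e-21). Adamts3 fell too, with 3.42, 3.52 and 3.70 CPM in NPS-EMSC and 7.84, 7.10 and 7.49 CPM in EMSC (log2 fold change -1.07, SE 0.16). Adamts14 went the other way, with 2.17, 2.53 and 1.80 CPM in NPS-EMSC and 0.364, 0.495 and 1.38 CPM in EMSC, of which EMSC replicate 3 was the highest (log2 fold change 1.48, SE 0.39, adjusted p = 0.0022). Without EMSC replicate 3 its value was 2.20. The 3 genes together had 32.2 ± 1.21 FPKM in NPS-EMSC and 116 ± 2.66 FPKM in EMSC. Adamts2 FPKM was 0.0310 ± 0.00200 of Col1a1 FPKM in NPS-EMSC and 0.0914 ± 0.00711 in EMSC (SD, n = 3).

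**Figure D3:**
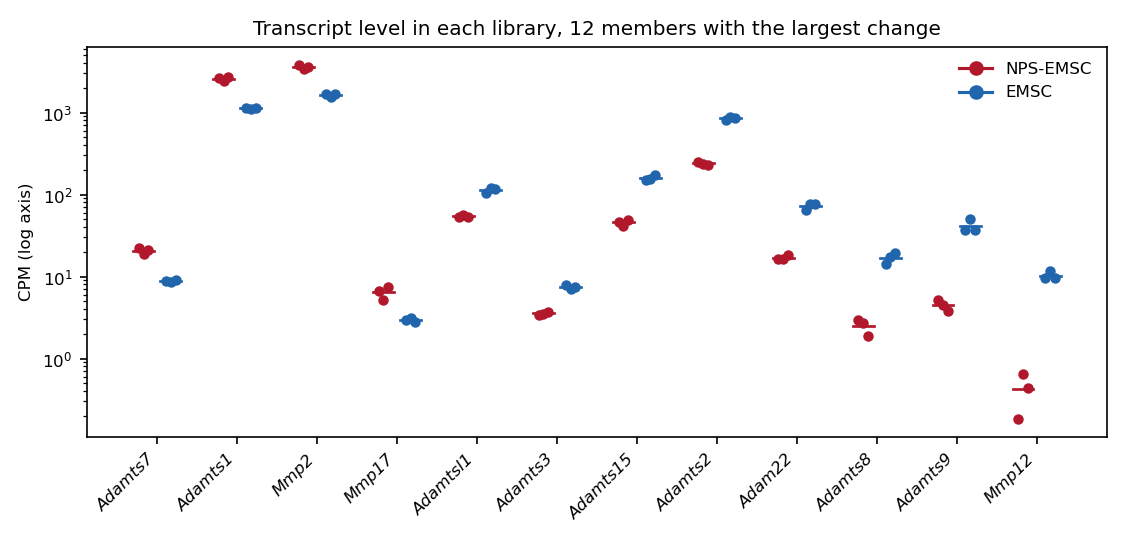
CPM on a log axis in each library for the 12 called members with the largest absolute log2 fold change and at least 5 CPM in the higher group, NPS-EMSC in red and EMSC in blue. Points are libraries and lines are means (n = 3 a group). The groups are separate for each of the 12 genes, 4 of which were higher and 8 lower in NPS-EMSC.

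Of the 2 enzymes that cut cartilage oligomeric matrix protein, 1 rose and 1 did not pass (50% called, against 59.3% of all tested genes). Adamts7 had 22.5, 18.7 and 21.0 CPM in NPS-EMSC and 8.82, 8.53 and 9.12 CPM in EMSC and rose (log2 fold change 1.23, SE 0.11, adjusted p = 2.24e-10), while Adamts12 had 12.7 ± 0.587 CPM in NPS-EMSC and 12.4 ± 1.51 CPM in EMSC (SD, n = 3; adjusted p = 0.826). The substrate gene itself, Comp, fell to 0.552 ± 0.0443 CPM in NPS-EMSC, against 19.4 ± 1.51 CPM in EMSC. Of the fibrillin-associated members, Adamts6 rose 1.26-fold and Adamts10 had 115, 95.9 and 118 CPM in NPS-EMSC and 125, 124 and 150.2 CPM in EMSC, a fall with a log2 fold change of -0.28 (SE 0.09, adjusted p = 0.029). On unfiltered FPKM the calls of Adamts10 (adjusted p = 0.084) and Adamts6 (0.0667) were lost. Adamts17 had 0.313, 0.233 and 0.488 CPM in NPS-EMSC and 1.14, 0.792 and 0.626 CPM in EMSC. It fell (adjusted p = 0.0299), a call that was lost without NPS-EMSC replicate 1 (0.093) or 2 (0.117) or EMSC replicate 1 (0.146) or 2 (0.0589), and on unfiltered FPKM (0.0689).

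Of the 5 ADAMTS-like genes, 2 fell and 2 rose (80%, against 59.3% of all tested genes). Adamtsl3, whose FPKM was below that of Adamts1 and above that of all other ADAMTS and ADAMTS-like genes in both groups, had 706, 694 and 686 CPM in NPS-EMSC and 1189.8, 1302 and 1268 CPM in EMSC (log2 fold change -0.85, SE 0.05, adjusted p = 3.25e-14). Adamtsl1 also fell, with 53.8, 56.2 and 53.0 CPM in NPS-EMSC and 104, 119 and 117 CPM in EMSC (log2 fold change -1.06, SE 0.06). Adamtsl4, which binds fibrillin microfibrils, had 162, 175 and 166 CPM in NPS-EMSC and 153, 154 and 150.4 CPM in EMSC, and its rise of 0.14 on the log2 scale (adjusted p = 0.0122) was lost without NPS-EMSC replicate 2 (0.0714) or EMSC replicate 3 (0.0502). The rise of Adamtsl5 by 0.27 (adjusted p = 0.0159) was lost without NPS-EMSC replicate 3 (0.193) or EMSC replicate 1 (0.0691) or 2 (0.0521). Both rises were also lost on FPKM values. Adamtsl2 had at most 16 reads in any library and did not pass (adjusted p = 0.251).

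Of 8 tested proteolytic ADAMs, 5 fell (Adam8, Adam9, Adam10, Adam12 and Adam15) and 3 rose (Adam17, Adam19 and Adam33). All 8 were thus called, where 59.3% of all tested genes were. Adam10, the constitutive sheddase of Notch, cadherins and the amyloid precursor protein, had 110.4, 102 and 106 CPM in NPS-EMSC and 149.9, 148 and 152 CPM in EMSC (log2 fold change -0.50, SE 0.05, adjusted p = 1.39e-09). Adam17, the enzyme that releases tumour necrosis factor and ligands of the EGF receptor, had 178, 181 and 182 CPM in NPS-EMSC and 150.3, 157 and 153 CPM in EMSC (log2 fold change 0.23, SE 0.04, adjusted p = 7.18e-05). The 2 sheddases thus lay apart in opposite directions, and Adam17 FPKM was 1.57 ± 0.0724 times that of Adam10 in NPS-EMSC and 0.944 ± 0.0303 times in EMSC.

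Adam9, the most abundant ADAM by FPKM, had 187, 185 and 190.3 CPM in NPS-EMSC and 235, 241 and 245 CPM in EMSC (log2 fold change -0.36, SE 0.04). Adam12, known from muscle and mesenchymal development, had 190.0, 218 and 193 CPM in NPS-EMSC and 281, 340.0 and 289 CPM in EMSC (log2 fold change -0.60, SE 0.07). Both fell without overlap, as did Adam15, with a log2 fold change of -0.40. Adam33, a mesenchymal ADAM, rose 1.74-fold to 93.6 ± 7.15 CPM in NPS-EMSC, against 53.9 ± 0.694 CPM in EMSC (SD, n = 3; adjusted p = 6.32e-12). Adam1a, mainly a testis gene, had 1.96, 1.94 and 2.13 CPM in NPS-EMSC and 2.65, 2.70 and 2.71 CPM in EMSC and did not pass (adjusted p = 0.144), while all 3 limma fits on FPKM called it lower (9.35e-04 to 0.00575). Adam19 rose by 0.17 (SE 0.05, adjusted p = 0.00702), a call that was lost without EMSC replicate 3 (adjusted p = 0.0539) and in all 3 limma fits on FPKM (0.107 to 0.116).

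Adam22, an ADAM without protease activity that serves as a receptor of LGI proteins in nerve tissue, showed the largest change of its family. It had 16.3, 16.1 and 18.4 CPM in NPS-EMSC and 65.4, 76.7 and 76.1 CPM in EMSC, with every EMSC library more than 3-fold above every NPS-EMSC library (log2 fold change -2.10, SE 0.08, adjusted p = 6.15e-18). Lgi4, its ligand in peripheral nerve, fell as well, to 0.396 ± 0.301 CPM in NPS-EMSC, against 10.8 ± 1.75 CPM in EMSC (SD, n = 3; adjusted p = 1.03e-09). The related Adam23 had 4.80 ± 0.426 CPM in NPS-EMSC and 4.83 ± 0.815 CPM in EMSC (adjusted p = 0.971). Of 7 Schwann and glial markers 2 were tested, and 1 of them, S100b, fell (log2 fold change -1.98, adjusted p = 4.96e-12). The share called was 50%, against 59.3% of all tested genes. The 7 markers together held 3.71 to 4.16 CPM in NPS-EMSC and 13.6 to 14.7 CPM in EMSC. Sox10, the defining Schwann cell factor, named after its values were seen, had at most 5 reads in any library. The part of such cells in the Adam22 value was not tested.

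Among the inhibitors, Timp1 rose and Timp2 and Reck fell. Timp1 had 1104, 1156 and 1115 CPM in NPS-EMSC and 885, 887 and 796 CPM in EMSC (log2 fold change 0.39, SE 0.05, adjusted p = 1.34e-07). Timp2, which both inhibits MMP2 and takes part in its activation by MT1-MMP, had 2419, 2408 and 2332 CPM in NPS-EMSC and 2906, 2823 and 2954 CPM in EMSC (log2 fold change -0.28, SE 0.05, adjusted p = 1.10e-05). Neither gene had overlapping groups. Reck, a membrane-anchored inhibitor, had 206, 196 and 193 CPM in NPS-EMSC and 255, 252 and 262 CPM in EMSC (log2 fold change -0.37, SE 0.04, adjusted p = 8.76e-08). Its groups were also apart.

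Timp3, the matrix-bound inhibitor of ADAM17 and of the aggrecanases, had 54.0, 40.9 and 48.6 CPM in NPS-EMSC and 50.7, 55.8 and 61.4 CPM in EMSC. The groups overlapped, and its call (log2 fold change -0.23, SE 0.09, adjusted p = 0.0498) was lost without NPS-EMSC replicate 2 (0.165) or 3 (0.0993) and without EMSC replicate 2 (0.119) or 3 (0.166). It was lost under RLE scaling (0.058) and in all 3 limma fits on FPKM (0.0572 to 0.145) too. Timp4 had 2.90, 2.40 and 2.34 CPM in NPS-EMSC and 2.82, 2.004 and 1.68 CPM in EMSC and did not pass (adjusted p = 0.459). In the RefSeq table Timp1, Timp3 and Timp4 overlap Syn1, Syn3 and Syn2 and Timp2 overlaps Cep295nl. In any library Syn1 had at most 60 reads, Cep295nl at most 231 and Syn2 at most 4. Syn3 had 35, 55 and 46 reads in NPS-EMSC and 146, 165 and 189 in EMSC. Timp1 had at least 31795 reads in any library, Timp2 at least 90827, Timp3 at least 1581 and Timp4 at least 67. No source used here says whether the counting used strand, so reads of overlapping genes cannot be told apart. The part of such reads in the Timp values was not tested.

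**Figure D4:**
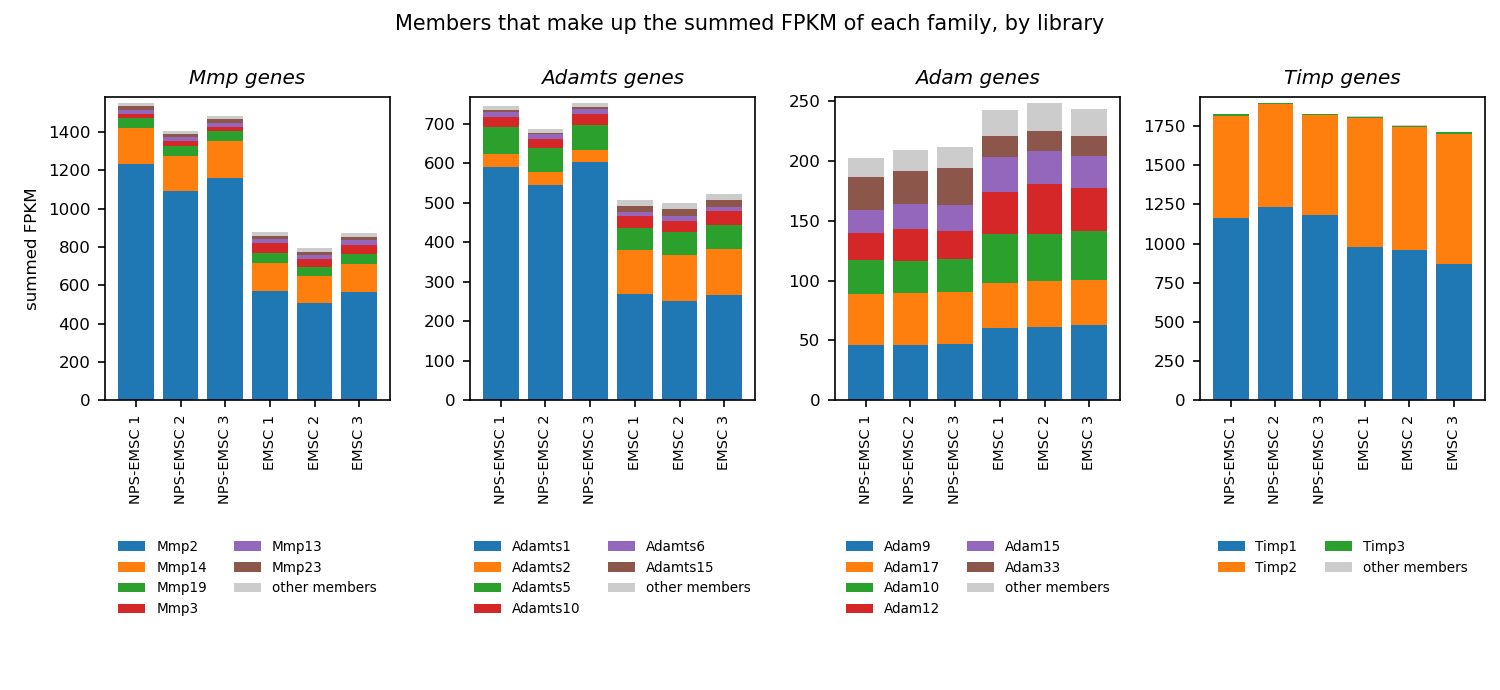
Summed FPKM of the Mmp, Adamts, Adam and Timp genes in each library, stacked by member, with NPS-EMSC libraries on the left of each panel. The 6 members with the highest mean are shown one by one (3 for Timp) and the rest in grey. Mmp2 and Adamts1 make up most of their columns in both groups, at 78.4% and 79.6% in NPS-EMSC and 64.6% and 51.5% in EMSC.

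The level of inhibitor transcripts relative to MMP transcripts was lower in NPS-EMSC. Summed FPKM of the 4 TIMP genes was 1852 ± 41.0 in NPS-EMSC and 1759.7 ± 49.8 in EMSC, and over the summed Mmp FPKM this gave ratios of 1.18, 1.35 and 1.23 in NPS-EMSC and 2.06, 2.21 and 1.96 in EMSC. The ratios did not overlap, and their difference was -0.73 on the log2 scale. With Mmp2 left out of the sum the difference was -0.02. Timp2 over Mmp2 was 0.530, 0.601 and 0.545 in NPS-EMSC and 1.45, 1.54 and 1.46 in EMSC. Mmp14 over Timp2 was 0.296, 0.279 and 0.299 in NPS-EMSC and 0.177, 0.176 and 0.177 in EMSC. The TIMP sum itself has no firm direction, since it was 0.07 on the log2 scale in FPKM and -0.10 in CPM. Transcript ratios do not measure protein, zymogen activation or enzyme activity.

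**Figure D5:**
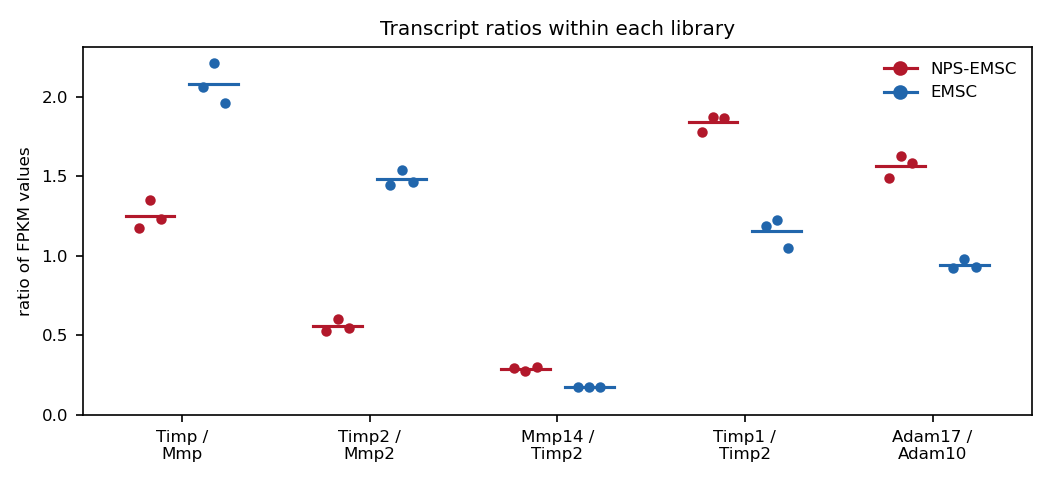
Ratios of FPKM values within each library, NPS-EMSC in red and EMSC in blue. Points are libraries and lines are means (n = 3 a group). The ratios of TIMP to MMP and of Timp2 to Mmp2 were lower in NPS-EMSC, and those of Mmp14 to Timp2, Timp1 to Timp2 and Adam17 to Adam10 higher.

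Of 14 tested activators, clearance receptors and other extracellular regulators, 3 rose and 5 fell, a share of 57.1% that lay near the 59.3% of all tested genes. Their median log2 fold change was -0.03. Rarres1, the gene with the smallest p of the list, fell to 6.55 ± 1.05 CPM in NPS-EMSC, against 56.3 ± 2.81 CPM in EMSC (SD, n = 3; adjusted p = 4.02e-19). Plau, the urokinase gene, rose to 43.9 ± 2.46 CPM in NPS-EMSC, against 14.6 ± 1.40 CPM in EMSC (SD, n = 3; adjusted p = 1.24e-14). A2m, the plasma-type inhibitor α2-macroglobulin, fell to 0.585 ± 0.336 CPM in NPS-EMSC, against 6.20 ± 0.838 CPM in EMSC (adjusted p = 1.10e-09), and the proprotein convertase gene Pcsk6 fell 2.43-fold. Furin, named after its values were seen as the convertase of membrane-type MMPs and ADAMs, had 175 ± 10.1 CPM in NPS-EMSC and 172 ± 5.68 CPM in EMSC (adjusted p = 0.695).

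Of 7 tested astacins and other extracellular metalloproteinases, 2 rose and 4 fell (85.7%, against 59.3% of all tested genes). Tll1 and Bmp1, the procollagen C-proteinases, moved in opposite directions, Tll1 to 210.0 ± 5.80 CPM in NPS-EMSC, against 76.2 ± 3.22 CPM in EMSC, and Bmp1 to 84.4 ± 3.37 CPM in NPS-EMSC, against 112 ± 1.40 CPM in EMSC (SD, n = 3). Pappa2, which cuts IGF-binding proteins, fell to 11.1 ± 1.17 CPM in NPS-EMSC, against 171 ± 18.8 CPM in EMSC, and Mme, neprilysin, fell 2.84-fold.

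Of 11 tested ADAM partners, 4 rose and 4 fell (72.7%, against the same 59.3%). The iRhom genes, whose products carry ADAM17 to the cell surface, moved in opposite directions, with Rhbdf1 at 31.9 ± 1.51 CPM in NPS-EMSC and 60.9 ± 2.52 CPM in EMSC and Rhbdf2, named after its values were seen, at 10.4 ± 1.503 CPM in NPS-EMSC and 6.43 ± 0.111 CPM in EMSC (SD, n = 3; adjusted p = 1.44e-04). Sh3pxd2b and Sh3pxd2a, which encode podosome scaffold proteins, rose 1.58-fold and 1.23-fold. Of 19 tested substrates of ADAM shedding, 6 rose and 9 fell (78.9%). Tgfa, a ligand of the EGF receptor released by ADAM17, rose to 57.3 ± 2.30 CPM in NPS-EMSC, against 6.26 ± 0.923 CPM in EMSC (adjusted p = 5.98e-20), while Cx3cl1, Vcam1 and App fell 26.7-fold, 5.80-fold and 1.52-fold.

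Of 16 tested matrix substrates, 10 fell and 3 rose (81.2%), with a median log2 fold change of -0.31. The proteoglycan gene Dcn and the fibrillin gene Fbn1 fell 3.07-fold and 2.65-fold, and Acan, the aggrecan core protein, rose to 18.7 ± 1.28 CPM in NPS-EMSC, against 2.07 ± 0.217 CPM in EMSC (SD, n = 3; adjusted p = 3.85e-16). Of 12 AP-1 and ETS factors, which are known regulators of MMP promoters, 3 rose and 5 fell, a share of 66.7% against 59.3% of all tested genes. Fos fell to 16.6 ± 0.285 CPM in NPS-EMSC, against 34.8 ± 4.33 CPM in EMSC, Junb and Etv5 fell 1.297-fold and 1.82-fold, and Fosl1 rose to 33.4 ± 3.32 CPM in NPS-EMSC, against 12.5 ± 2.57 CPM in EMSC.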

How the data were processed

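RNA-seq was made from 3 libraries of NPS-EMSC and 3 of EMSC. The authors deposited raw read counts per gene and FPKM values, with R 3.2.0, DESeq, StringTie, HTSeq, HISAT2 and fastp as tools per the submitters' processing notes. Genome build, annotation and strand setting of the counting: not given in the sources used here. The deposited FPKM were the counts rescaled by total and by 1 fixed length per gene (20653 of 20653 genes within 0.1 percent), without TMM scaling.

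Counts were tested with edgeR 4.0.16 in R 4.3.3 (TMM, robust quasi-likelihood, filterByExpr with a minimum of 10 reads and 15 in total, prior count 2), with Benjamini-Hochberg adjustment over 14505 genes and a threshold of 0.05. The steps were tested on simulated data. CPM uses the TMM-scaled total. The standard error is the log2 fold change over the root of F, and is rough at low counts. Alternatives used limma 3.58.1 and DESeq2 1.42.0. Intervals and floors cover counting error only. Sums and ratios had no test.

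Members named with full values are the 12 called members with the largest change and at least 5 CPM in the higher group, the most abundant of each family by FPKM, the inhibitors, and Mmp14, Mmp2, Timp2, Adam10 and Adam17. Of each gene list named genes come from the 4 with the smallest p, and tested list genes beyond these are named as chosen after their values were seen. The members and the lists were chosen with earlier results of these data known. A marker of the Schwann and glial list is not reported here.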

Additional observations from a re-analysis of the deposited data

How the results depend on the processing

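Of the 39 called members, 29 kept their call and direction in every one of the 15 alternatives that tested them. Over 719 pairs of member and alternative, 657 kept direction and side of the threshold, 36 lost the call, 4 gained it and 22, all of members without a call, changed sign. The sign changes came to 0.00208 for Adam23 by limma-voom. On log2(FPKM + 1), with or without a filter, they were -0.00458 for Adamts12, -0.0277 for Mmp19 and -0.00800 for Mmp28, and on log2(FPKM + 0.1) they were -0.00624 for Adamts12, -0.0282 for Mmp19 and -0.0114 for Mmp28. With 1 replicate left out the values ranged from -0.0957 to 0.135 for Adam23, -0.0258 to 0.135 for Adamts12, -0.0594 to 0.150 for Mmp13, -0.333 to 0.102 for Mmp15, -0.00589 to 0.0295 for Mmp19 and -0.0394 to 0.134 for Mmp28. The members called then numbered 16 to 18 higher and 18 to 20 lower. On CPM the log2 difference of the summed level was 0.90 for Mmp, -0.28 for Adam, 0.34 for Adamts and -0.10 for Timp, and that of TIMP over MMP was -0.999. With Mmp2 left out of the FPKM sum this ratio differed by -0.0192. In alternatives chosen after seeing the data, the summed FPKM differed by 0.0933 for Mmp without Mmp2 and by -0.73 for Adamts without Adamts1, and on CPM the Adamts sum without Adamts1 differed by -0.94. Unfiltered FPKM called 37.3% of all genes. Leukocyte markers called lower numbered 7 with a filter of 1 CPM and 7 or 6 on filtered FPKM, against 12 in the main fit. Ptprc, Csf1r, Itgam, C1qa and Tyrobp did not reach 1 CPM in 3 libraries and so were not tested under the CPM filter. For the other changes given here the cause was not tested. Deviations from the group mean correlated at -0.0597, 0.0749 and 0.0518 between libraries of the same replicate number. Between unlike numbers the correlations ranged from -0.150 to 0.107. With so few libraries this cannot tell whether same-numbered libraries shared a culture or batch. With a replicate block 18 members were higher, 21 lower and 8588 genes called, with the TIMP over MMP difference at -0.73.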
